A study of Mus musculus with 71 samples.

Results

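The Slc25 genes encode the mitochondrial carrier family. They were taken here as every gene whose symbol is Slc25a followed by a number and that had at least 1 probe set annotated to 1 gene only. The rule gave 33 genes with 65 probe sets, of 12393 genes and 22626 probe sets on the array. RefSeq listed 47 such symbols, and the 14 without such a probe set were not analysed, so statements on the family cover the 33 only. There were 15 genes with more than 1 probe set and 18 with 1. Where 1 value stands for a gene, it is from the probe set with the highest mean log2 signal over all arrays. Of the 65 probe sets, 11 end in _x_at and 4 in _s_at, which marks probes that can also bind other transcripts, so signals of close relatives such as Slc25a4 and Slc25a5 may be mixed.

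The measurements came from 71 Affymetrix 430A arrays of mouse adipocytes of 2 cell lines. 3T3-L1 is a line of embryo fibroblasts that were differentiated with insulin, 3-isobutyl-1-methylxanthine, dexamethasone and 100 nM rosiglitazone (RSG), and C3H/10T1/2 is a line of embryonic mesenchymal cells that were differentiated with insulin and 10 µM RSG. RSG is an agonist of the nuclear receptor PPARγ, so every group, controls included, had met it before the experiment. After 24 hrs in a wash-out medium without RSG, cells received 1 µM RSG or the vehicle DMSO and were harvested at 1 hr, 2 hrs, 4 hrs, 7 hrs, 24 hrs or 48 hrs. Of the 24 groups of cell type, treatment and time, 23 held 3 arrays and 1 held 2, that of 3T3-L1 adipocytes with DMSO for 2 hrs, whose arrays are replicates 2 and 3. Each replicate came from a separate differentiation of the same line, with a pair of wells pooled, so errors describe the spread between differentiations of 1 line and not between animals.

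Most carriers of this family, though not all, sit in the inner mitochondrial membrane. These exchange nucleotides, phosphate, keto acids, amino acids, carnitine esters and coenzymes between the cytosol and the matrix. Fatty acid oxidation needs the carnitine-acylcarnitine carrier for its substrate and the ADP/ATP carriers for the export of its ATP. In adipocytes, carriers of malate, citrate and other acids also bring carbon and reducing power to the cytosol, where fatty acids are made.

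The signals were MAS 5.0 intensities without a unit. The median over all probe sets of 1 array lay between 50.2 and 64.2 in 3T3-L1 and, in C3H/10T1/2, between 38.2 and 46.9. The methods call a probe set present above the 95th percentile of the negative controls, here the presence level, and 67.8 to 73.9% of probe sets reached it in 3T3-L1, against 62.1 to 67.7% on the C3H/10T1/2 arrays. A probe set entered the test of a cell type if 1 or more of the group means reached that level, and it was called when the limma test gave an adjusted p under 0.05 over all probe sets tested. Of 8 adipocyte markers 7 were measured, Adipoq and Fabp4 among them, and none was under the presence level on all arrays of a cell type. Adipoq and Fabp4 were not called at 24 or 48 hrs. Pparg was lower with RSG in 3T3-L1 (log2 −1.03 at 24 hrs and −0.83 at 48 hrs, adjusted p = 7.88e-05 and 0.000823) and at 48 hrs in C3H/10T1/2 (log2 −0.61, 0.00108), and Cidec was higher in 3T3-L1 (log2 1.14 and 0.84, adjusted p = 1.16e-05 and 0.000513). The summed adipocyte signal was apart at 24 hrs in 3T3-L1 alone, 25143 to 31843 with DMSO and 32357 to 40813 with RSG. Of 4 brown adipocyte markers Cidea was higher, by 2.92 on the log2 scale at 48 hrs in 3T3-L1 (adjusted p = 5.71e-05) and by 1.95 in C3H/10T1/2 (0.000199), while Ucp1 was under the presence level on all arrays. Dio2 and Ppargc1a were not called at 24 or 48 hrs in either cell type. The highest RSG array of 3T3-L1 read 975.0 for Cidea, 83.9 for Dio2 and 116.0 for Ppargc1a. The summed signal of the 4 thus came mainly from Cidea and does not show a rise of the set. At 48 hrs it was 224 to 239 with DMSO and 722 to 1115 with RSG in 3T3-L1. For C3H/10T1/2 it was 222 to 376 with DMSO and 720 to 981 with RSG. At 24 hrs it was 203 to 242 with DMSO and 322 to 509 with RSG, and 268 to 580 and 667 to 1102. The summed signal of 7 fibroblast and preadipocyte markers was lower with RSG. In 3T3-L1 it lay between 9115 and 11057 with DMSO and between 5802 and 7154 with RSG at 24 hrs, and between 10910 and 11064 with DMSO and between 6962 and 7283 with RSG at 48 hrs. The ranges in C3H/10T1/2 were 6333 to 7261 with DMSO and 4619 to 5344 with RSG at 24 hrs, and 6211 to 6697 with DMSO and 4306 to 5472 with RSG at 48 hrs. The 3T3-L1 arrays had 4 of the 7 markers called lower at 24 hrs and 6 at 48 hrs, and the C3H/10T1/2 arrays had 3 at each time. None of the 7 was under the presence level on all arrays. The part of these marker shifts in the values that follow was not tested. In such bulk samples, fewer cells of a type and less RNA per cell cannot be told apart.

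With RSG, some carriers were higher in both cell types, mainly at the last 2 times. In no comparison were 17 of the 33 genes called, the untested Slc25a48 among them. In 3T3-L1, 59 probe sets of 32 Slc25 genes were tested, and 14 were higher with RSG at 24 hrs. That is 23.7% of those tested, where 4.79% of all tested probe sets were called higher. Only 2 were lower, which is 3.39% against 6.97% of all. At 48 hrs 14 again were higher and 1 was lower, where 6.2% of all tested probe sets were called higher and 8.09% lower. The calls at 24 hrs were of 11 genes higher and 2 lower, and those at 48 hrs of 10 genes higher and 1 lower. On 1 probe set per gene, 8 were higher at each time. The median log2 fold change over the family was 0.24 at 24 hrs and 0.21 at 48 hrs, and over all tested probe sets −0.01 and −0.03. The count at 24 hrs rested on single arrays: it was 6 without RSG replicate 1, 7 without DMSO replicate 2 and 6 without DMSO replicate 3. The count at 48 hrs fell to 9 on leaving out DMSO replicate 1. Lower calls moved too, to 0 without RSG replicate 1 and 1 without RSG replicate 3, DMSO replicate 2 or DMSO replicate 3 at 24 hrs, and at 48 hrs to 3 without RSG replicate 3, 2 without DMSO replicate 1, and 0 without RSG replicate 2, DMSO replicate 2 or DMSO replicate 3.

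The C3H/10T1/2 adipocytes had 57 tested probe sets of 31 genes. At 24 hrs 6 were higher, or 10.5%, where 3.65% of all tested were, and 2 were lower, where 4.07% of all were. At 48 hrs 6 were higher, again 10.5%, where 2.79% of all were, and 0 were lower, where 2.62% of all were and 0 had an unadjusted p under 0.05. These were 4 genes higher at each time and 2 lower at 24 hrs. The family's median log2 fold change was 0.13 and 0.16, against −0.07 and −0.01 over all. Replicates of this cell type with the same number deviated together, and with the number as a block the count of higher probe sets at 24 hrs became 10, or 17.5%, where 5.36% of all were higher. The count of lower probe sets was 1 without RSG replicate 1 or any 1 of the 3 DMSO arrays.

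Before 24 hrs few carriers were called. At 1 and 2 hrs there were 0 in either cell type, where 0.0666 and 0.172% of all tested probe sets were called in 3T3-L1, and 0.0434 and 0.229% of those tested for C3H/10T1/2. At an unadjusted p under 0.05, 2 Slc25 probe sets were higher and 0 lower at 1 hr and 1 was higher and 1 lower at 2 hrs in 3T3-L1. For C3H/10T1/2 the counts were 1 and 0 at 1 hr and 3 and 2 at 2 hrs. The methods' analysis of variance, with no adjustment, called 3 higher and 1 lower at 2 hrs in 3T3-L1, and 2 higher at 1 hr and 3 higher and 3 lower at 2 hrs in C3H/10T1/2. In 3T3-L1 the first call was at 4 hrs, of 1 probe set (1.69%, where 0.544% of all were higher), and the same count was reached at 7 hrs, where 1.22% of all were higher. It was that of Slc25a25 both times. With the replicate number as a block, though in 3T3-L1 the samples share only a number, 3 were higher at 4 hrs and 6 at 7 hrs. The share of all probe sets with that block is not given here. Lower calls at 7 hrs were 0, where 0.821% of all were lower and 2 members had an unadjusted p under 0.05. No carrier of C3H/10T1/2 was called at 4 hrs (6 higher and 2 lower at an unadjusted p under 0.05, where 0.763% of all were called), and 2 were higher with the replicate block, where 0.93% of all were. At 7 hrs 3 were higher and 1 lower, where 1.65% of all were higher and 1.2% lower. With the block these became 6 and 3, where 3.03 and 2.98% of all were higher and lower.

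**Figure D1:**
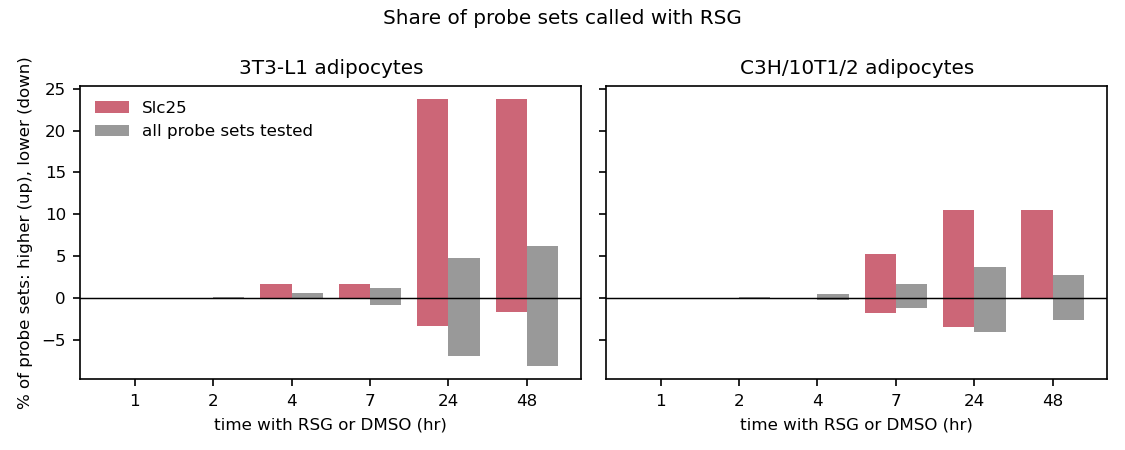
Share of the tested Slc25 probe sets (red) and of all tested probe sets (grey) called higher with RSG (bars upward) or lower (bars downward), in percent, by time in hours and cell type. The red bars upward reach 23.7% at 24 and 48 hrs in 3T3-L1 and 10.5% in C3H/10T1/2, above the grey bars of 4.79, 6.2, 3.65 and 2.79%.

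Over all times 16 of the 33 genes were called at least once and 17 were not, among them Slc25a48, which was not tested. There were 14 called genes in 3T3-L1, 8 in C3H/10T1/2 and 6 in both. The genes higher at 24 or 48 hrs numbered 12 in 3T3-L1 and 5 in C3H/10T1/2, and all 5 were among the 12 (Slc25a5, Slc25a11, Slc25a20, Slc25a39 and Slc25a51). The share of all genes called in these ways was not computed, so whether these counts or the overlap stand out cannot be said. A call in 1 cell type alone is not a difference between the cell types. When the difference in log2 fold change itself was tested over 61 Slc25 probe sets, 0 passed at 24 hrs and 0 at 48 hrs, where 0.257 and 0.848% of all did. At an unadjusted p under 0.05, the log2 fold change was larger in 3T3-L1 for 1 probe set and smaller for 2 at 24 hrs, and larger for 6 and smaller for 4 at 48 hrs. The counts were also 0 after quantile normalization.

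**Figure D2:**
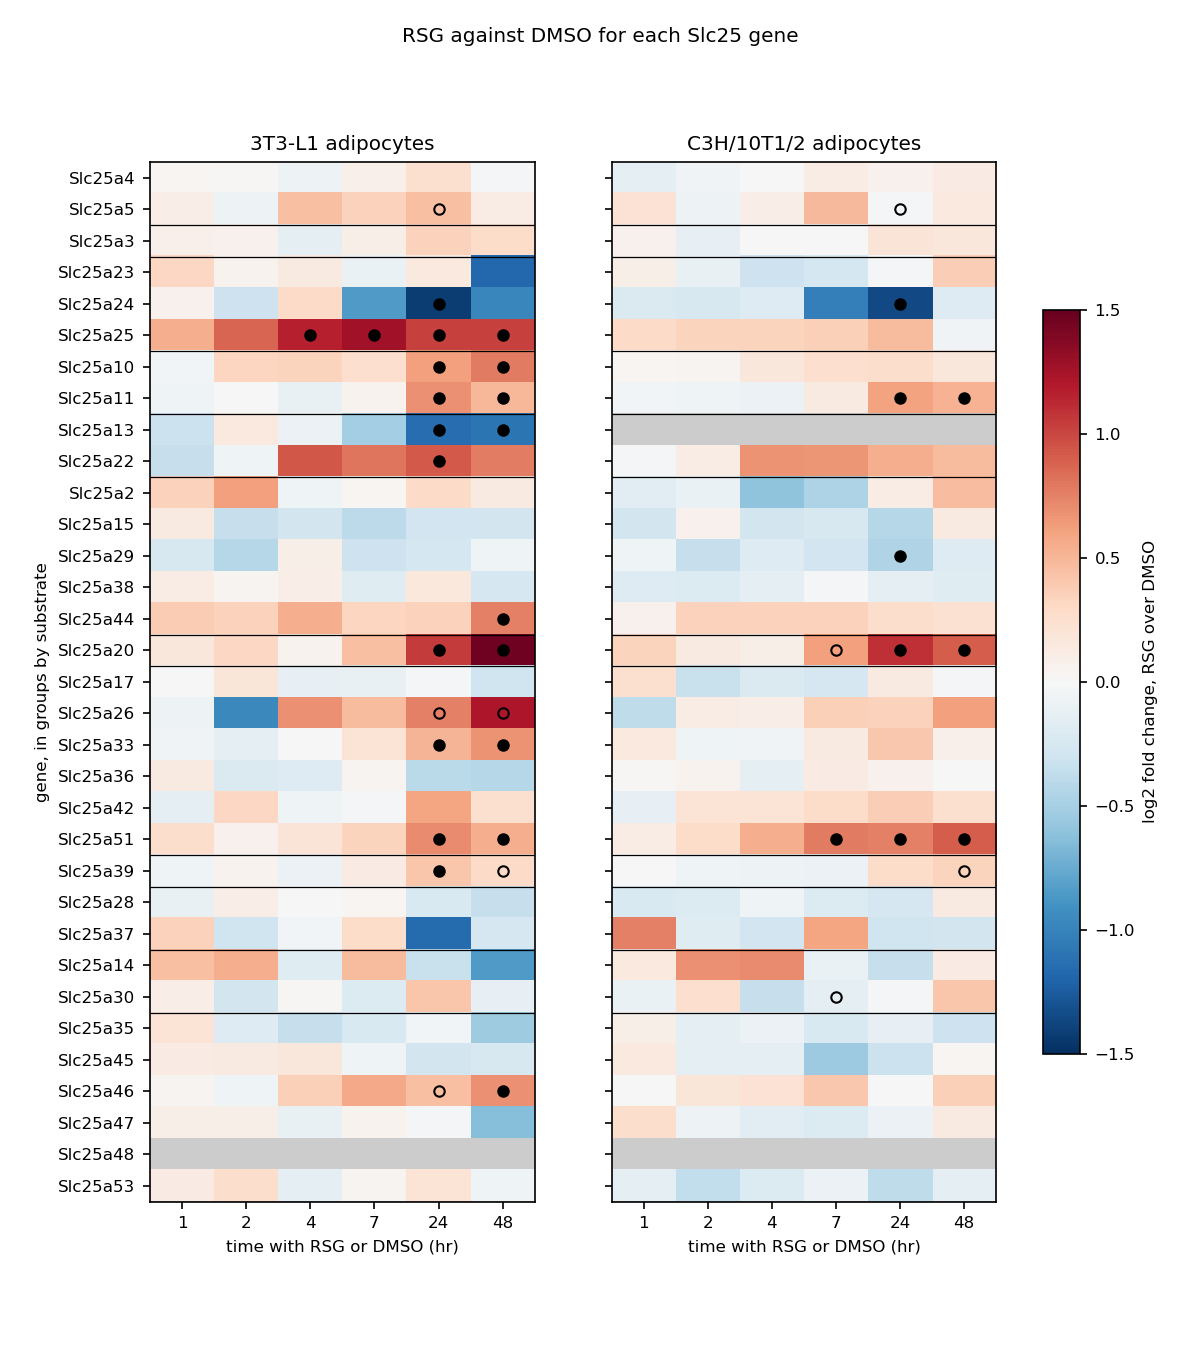
Log2 fold change of RSG over DMSO (colour, red higher) for the probe set that stands for each of the 33 genes (rows, grouped by substrate and divided by lines) at each time in hours (columns) in 3T3-L1 (left) and C3H/10T1/2 (right). Filled circles mark calls of that probe set, open circles calls of another probe set of the gene and grey cells genes that were not tested, and most circles lie in the columns of 24 and 48 hrs.

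The carriers of adenine nucleotides exchange cytosolic ADP for matrix ATP, and 2 were on the array with 12 probe sets, 8 of Slc25a5 and 4 of Slc25a4. Slc25a5, the form of proliferating and many other cells, was higher by 3 probe sets at 24 hrs in 3T3-L1. On probe set 1430542_a_at it read 3630.6, 2435.9 and 2803.6 with DMSO and 5679.1, 4670.7 and 4437.9 with RSG. All 3 RSG arrays were above all 3 DMSO arrays, and the fold was 1.68 (log2 0.75, SE 0.16, adjusted p = 0.00209). Probe set 1436874_x_at read 3972.6, 2966.2 and 3154.4 with DMSO and 7172.8, 4139.1 and 4276.7 with RSG. Its log2 fold change of 0.59 (adjusted p = 0.0155) became 0.33 without the high RSG replicate 1 (adjusted p = 0.229), and the call was also lost without DMSO replicate 2 (0.0925) or 3 (0.0711). The third, 1438546_x_at, changed by 0.53 on the log2 scale (adjusted p = 0.00794) and lost its call without RSG replicate 1 (0.0573), DMSO replicate 2 (0.0529) or DMSO replicate 3 (0.0654). By 1436874_x_at the C3H/10T1/2 arrays read 3312.7, 3315.9 and 3316.4 with DMSO at 24 hrs and 4190.8, 4280.8 and 4428.9 with RSG. The groups did not overlap and the fold was 1.3 (log2 0.38, SE 0.11, adjusted p = 0.026), but the call was lost without any 1 of the 6 arrays: the adjusted p was then 0.0585, 0.0607 or 0.0801 with RSG replicate 1, 2 or 3 left out and 0.068, 0.0699 or 0.0691 with DMSO replicate 1, 2 or 3 left out. After quantile normalization it was 0.0619. With the replicate block, 2 more probe sets of Slc25a5 passed in C3H/10T1/2, 1438546_x_at at 7 hrs (log2 0.38, adjusted p = 0.0428) and 1438922_x_at at 24 hrs (log2 0.76, adjusted p = 0.0342). At 48 hrs no probe set of the gene was called in either cell type, and the brightest, 1434801_x_at, was called at no time; at 48 hrs in 3T3-L1 its DMSO arrays alone ranged from 3016.8 to 6677.6. For 1430542_a_at the cell types differed at 24 hrs by 0.58 on the log2 scale (SE 0.20, adjusted p = 0.322; 0.0442 with the replicate block).

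Slc25a4, the form most abundant in heart and muscle, was called by none of its probe sets. Its log2 fold changes by 1455069_x_at lay between −0.14 and 0.24, with a smallest adjusted p of 0.289. The phosphate carrier Slc25a3, which supplies the phosphate for ATP synthesis, read 3865.1, 2787.1 and 3397.7 with DMSO and 4298.4, 4326.2 and 4081.8 with RSG at 24 hrs in 3T3-L1. The groups did not overlap, but the fold of 1.28 did not pass (adjusted p = 0.141).

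The calcium-regulated carriers exchange ATP-Mg for phosphate and so set the matrix pool of adenine nucleotides. Their 3 measured genes did not move together. Slc25a25, whose transcript is known to respond to many acute signals, was the carrier with the earliest call. In 3T3-L1 it read 79.3, 101.4 and 72.7 with DMSO and 192.6, 220.2 and 158.6 with RSG at 4 hrs. At 7 hrs it read 108.7, 92.1 and 61.9 with DMSO and 195.6, 203.3 and 212.5 with RSG. All RSG arrays lay above all DMSO arrays at both times, with folds of 2.26 (log2 1.17, SE 0.27, adjusted p = 0.0217) and 2.39 (log2 1.26, SE 0.27, adjusted p = 0.00677). At 24 hrs the DMSO arrays read 114.4, 117.5 and 72.3 and the RSG arrays 224.7, 232.0 and 154.6, and at 48 hrs they read 69.0, 126.0 and 111.3 and 247.2, 204.1 and 159.1. Both folds were 2.02, with adjusted p values of 0.00975 and 0.00812, again without overlap. Each of the 4 calls could be ended by 1 array. At 4 hrs these were RSG replicate 1 (adjusted p = 0.0976), RSG replicate 2 (0.15), DMSO replicate 1 (0.0973) and DMSO replicate 3 (0.147), at 7 hrs DMSO replicate 3 (0.0842), at 24 hrs RSG replicate 1 (0.054) and DMSO replicate 3 (0.099), and at 48 hrs RSG replicate 1 (0.0582) and DMSO replicate 1 (0.0895). The C3H/10T1/2 groups overlapped at all 6 times, with log2 fold changes from −0.05 to 0.48 and no call. The difference between the cell types was 0.54 at 24 hrs (SE 0.41, adjusted p = 0.789) and 1.07 at 48 hrs (SE 0.41, adjusted p = 0.315) and did not pass.

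Slc25a24, the second of these carriers, was lower with RSG at 24 hrs in both cell types. Its DMSO arrays in C3H/10T1/2 read 52.3, 39.5 and 31.0 and the RSG arrays 14.4, 18.2 and 14.9, all 3 under the presence level. RSG was therefore a bound, and the DMSO level was at least 2.01-fold higher (the DMSO mean against the presence level; adjusted p of the fit = 0.00536). In 3T3-L1 the DMSO arrays read 56.4, 51.2 and 45.0 and the RSG arrays 8.2, 37.3 and 22.4, without overlap. The log2 fold change was −1.42 (SE 0.37, adjusted p = 0.0087), and it was −0.81 (adjusted p = 0.152) without RSG replicate 1, the lowest array, and −0.99 (adjusted p = 0.0137) when signals under the presence level were set to that level. At 7 hrs the log2 fold change was −0.85 in 3T3-L1 (adjusted p = 0.322) and −1.02 in C3H/10T1/2 (0.0714, and 0.00565 with the replicate block), where 2 of the 3 RSG arrays were under the presence level. The values at 48 hrs were −0.98 (0.0714) and −0.19 (0.856). Slc25a23, the third, was not called. At 48 hrs in 3T3-L1 it read 81.2, 46.5 and 35.5 with DMSO and 44.4, 6.1 and 42.4 with RSG, and in C3H/10T1/2 37.0, 46.8 and 53.4 against 57.6, 57.3 and 60.2. The groups overlapped in the first and not in the second, and the difference between the cell types was −1.55 (SE 0.53, adjusted p = 0.213).

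**Figure D3:**
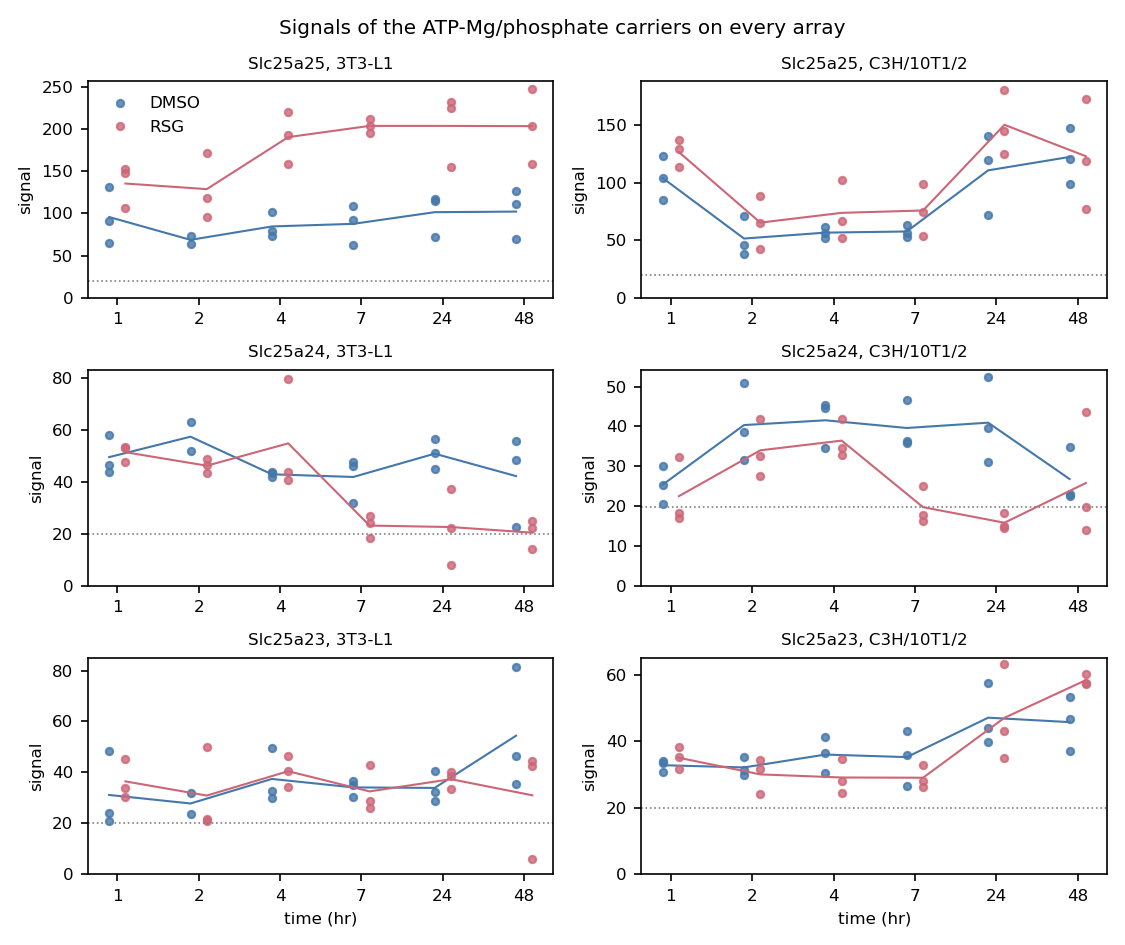
Signal (linear axis from 0) of Slc25a25, Slc25a24 and Slc25a23 on every array with DMSO (blue) and RSG (red) at each time in hours, with lines through the group means and a dotted line at the presence level. In 3T3-L1 the RSG points of Slc25a25 lie above the DMSO points from 4 hrs on, and those of Slc25a24 lie below them at 24 hrs in both cell types.

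The di- and tricarboxylate carriers move malate, 2-oxoglutarate, succinate and citrate. Slc25a11, the 2-oxoglutarate/malate carrier of the malate-aspartate shuttle, was higher in both cell types at both late times. At 24 hrs it read 892.0, 655.8 and 788.5 with DMSO and 1392.9, 1219.4 and 1116.3 with RSG in 3T3-L1. The C3H/10T1/2 arrays read 846.7, 803.8 and 981.6 with DMSO and 1293.7, 1216.7 and 1483.8 with RSG. No RSG array fell into the DMSO range, and the folds were 1.6 (log2 0.68, SE 0.13, adjusted p = 0.000673) and 1.52 (log2 0.60, SE 0.14, adjusted p = 0.00718), both kept without any 1 array. 3T3-L1 arrays at 48 hrs read 749.8, 866.9 and 871.7 with DMSO and 1212.8, 993.7 and 1333.5 with RSG, and C3H/10T1/2 read 877.3, 842.6 and 941.6 and 1041.1, 1346.8 and 1463.5. These folds, 1.42 (adjusted p = 0.00929) and 1.43 (adjusted p = 0.0266), were less firm. The first was lost without RSG replicate 3 (0.0695) or DMSO replicate 1 (0.059), and the second without RSG replicate 2 (0.107), RSG replicate 3 (0.16), DMSO replicate 1 (0.0797) or DMSO replicate 2 (0.101).

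Slc25a10, the dicarboxylate carrier that exchanges malate or succinate for phosphate, was higher in 3T3-L1. By probe set 1416954_at it read 1082.7, 805.2 and 816.8 with DMSO and 1476.7, 1343.4 and 1284.9 with RSG at 24 hrs. The values at 48 hrs were 610.6, 814.0 and 1107.0 with DMSO and 1739.5, 1286.0 and 1242.1 with RSG. RSG arrays were above DMSO arrays at both times, with folds of 1.53 (adjusted p = 0.0102) and 1.72 (adjusted p = 0.000882). The first was lost without RSG replicate 1 (0.0582), DMSO replicate 2 (0.0635) or DMSO replicate 3 (0.0626). Its other probe set, 1416955_at, had a fold of 1.96 at 48 hrs (log2 0.97, SE 0.21, adjusted p = 0.00146) and was not called at 24 hrs, where the groups overlapped (log2 0.42, adjusted p = 0.227). The log2 fold changes of 1416954_at in C3H/10T1/2 were 0.26 at 24 hrs (adjusted p = 0.27) and 0.17 at 48 hrs (0.631). Between the cell types the 48-hr values differed by 0.61 on the log2 scale (SE 0.21), which had an adjusted p of 0.215.

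Slc25a13, the liver-type aspartate/glutamate carrier (citrin), and Slc25a22, a glutamate carrier, went in opposite directions in 3T3-L1. Slc25a22 read 370.2, 349.3 and 283.7 with DMSO and 844.6, 500.7 and 583.8 with RSG at 24 hrs. The fold was 1.89 without overlap (log2 0.92, SE 0.27, adjusted p = 0.025), lost without RSG replicate 1 (0.176), DMSO replicate 2 (0.0549) or DMSO replicate 3 (0.123). For C3H/10T1/2 it passed with the replicate block alone, with log2 fold changes of 0.67 at 4 hrs (adjusted p = 0.0422 with the block and 0.199 without), 0.66 at 7 hrs (0.0183 and 0.0966) and 0.54 at 24 hrs (0.0372 and 0.134). Slc25a13 was dim. It read 40.8, 63.1 and 51.8 with DMSO and 18.3, 37.4 and 18.1 with RSG at 24 hrs, without overlap (log2 −1.14, SE 0.33, adjusted p = 0.0202). Its arrays at 48 hrs read 26.4, 51.5 and 56.8 with DMSO and 18.9, 12.5 and 34.0 with RSG, with overlap (log2 −1.09, SE 0.33, adjusted p = 0.0235). The call at 24 hrs was lost without RSG replicate 1 (0.117), RSG replicate 3 (0.102), DMSO replicate 2 (0.106) or DMSO replicate 3 (0.0635). That at 48 hrs was lost without RSG replicate 1 (0.0726), RSG replicate 2 (0.194), DMSO replicate 2 (0.0924) or DMSO replicate 3 (0.119), and with signals under the presence level set to that level (0.058). It was not tested in C3H/10T1/2, since no group mean reached the presence level.

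The carriers of other amino acids had 5 measured genes and 1 call in each cell type. Slc25a44, a carrier of branched-chain amino acids, read 130.3, 125.0 and 140.8 with DMSO and 282.3, 215.5 and 183.8 with RSG at 48 hrs in 3T3-L1. It was 1.7-fold higher without overlap by probe set 1436909_at (log2 0.76, SE 0.15, adjusted p = 0.000502), kept without any 1 array, while 1433448_at and 1456465_at had log2 fold changes of 0.21 each and were not called. Slc25a29, a carrier of basic amino acids, read 150.5, 156.1 and 159.5 with DMSO and 121.2, 96.4 and 125.6 with RSG at 24 hrs in C3H/10T1/2. RSG arrays were all lower (log2 −0.45, SE 0.14, adjusted p = 0.0485), a call at the edge of the threshold. It was lost after quantile normalization (0.12) and without RSG replicate 1 (0.0738) or 2 (0.246) or DMSO replicate 1 (0.0896), 2 (0.116) or 3 (0.133). The ornithine carriers Slc25a2 and Slc25a15 and the glycine carrier Slc25a38 were not called, except that probe set 1420966_at of Slc25a15 was lower at 7 hrs in C3H/10T1/2 with the replicate block (log2 −0.86, adjusted p = 0.023 with it and 0.116 without). There 2 of its 3 RSG arrays were under the presence level.

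Slc25a20, the carnitine-acylcarnitine carrier that brings long-chain acyl groups to β-oxidation, had the largest fold among the calls that were higher with RSG. In 3T3-L1 it read 212.9, 231.4 and 188.3 with DMSO and 425.4, 450.8 and 429.9 with RSG at 24 hrs. At 48 hrs it read 161.4, 171.4 and 149.6 with DMSO and 425.9, 406.9 and 496.7 with RSG. The folds were 2.07 (log2 1.05, SE 0.24, adjusted p = 0.00304) and 2.75 (log2 1.46, SE 0.24, adjusted p = 5.38e-05), with no overlap. C3H/10T1/2 arrays read 337.4, 430.3 and 385.8 with DMSO and 761.8, 837.0 and 842.6 with RSG at 24 hrs, and 350.9, 417.0 and 441.1 and 662.2, 870.4 and 736.6 at 48 hrs. Again the groups were apart, with folds of 2.12 (log2 1.09, SE 0.20, adjusted p = 0.000508) and 1.87 (log2 0.91, SE 0.20, adjusted p = 0.00382). Its second probe set, 1423109_s_at, was called earlier in C3H/10T1/2: at 7 hrs it read 163.7, 172.1 and 145.9 with DMSO and 291.6, 256.2 and 239.4 with RSG (fold 1.63, adjusted p = 0.00226). The log2 fold change of the first probe set there, 0.61, passed with the replicate block alone (adjusted p = 0.0128, and 0.0979 without). At 24 and 48 hrs the second had log2 fold changes of 1.23 (3.84e-07) and 0.73 (0.000729) in C3H/10T1/2, and 0.60 (0.0538) and 0.93 (0.00156) in 3T3-L1. All 8 calls of the gene were kept without any 1 array.

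The carriers of coenzymes, vitamins and nucleotides included the member with the most calls. Slc25a51, the carrier of NAD+ into the matrix, was higher with RSG by both of its bright probe sets, at 7, 24 and 48 hrs in C3H/10T1/2 and at 24 and at 48 hrs in the 3T3-L1 arrays. By 1433816_at it read 409.9, 533.8 and 508.7 with DMSO and 850.3, 858.9 and 777.6 with RSG at 7 hrs in C3H/10T1/2. Its values at 48 hrs were 431.3, 363.7 and 433.5 with DMSO and 883.8, 719.2 and 704.6 with RSG. The groups were apart, with folds of 1.72 (log2 0.78, SE 0.14, adjusted p = 0.000667) and 1.87 (log2 0.91, SE 0.14, adjusted p = 4.99e-05), and the fold at 24 hrs was 1.68 (adjusted p = 0.000561). At 4 hrs the log2 fold change was 0.54 (adjusted p = 0.0574, and 0.0368 with the replicate block). In 3T3-L1 it read 408.9, 440.9 and 415.7 with DMSO and 655.8, 690.9 and 725.1 with RSG at 24 hrs, without overlap (fold 1.64, log2 0.71, SE 0.12, adjusted p = 8.78e-05), and the fold at 48 hrs was 1.47 (adjusted p = 0.00133). Probe set 1454712_at gave log2 fold changes of 0.87 (adjusted p = 0.00128) and 0.98 (0.000266) in 3T3-L1 and of 0.59 (0.00753), 0.68 (0.000922) and 0.50 (0.0179) at 7, 24 and 48 hrs in C3H/10T1/2. Of these 10 calls, the last was lost without RSG replicate 2 (0.109), DMSO replicate 2 (0.118) or DMSO replicate 3 (0.0616), and the others were kept without any 1 array.

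The DMSO arrays of Slc25a51 in C3H/10T1/2 had a course of their own. By 1433816_at they read 801.1, 767.4 and 807.9 at 1 hr and 523.7, 439.9 and 367.4 at 24 hrs. RSG arrays read 882.4, 790.4 and 896.0 at 1 hr and 775.6, 608.3 and 850.1 at 24 hrs. DMSO fell by 0.85 on the log2 scale from 1 to 24 hrs (adjusted p = 5.04e-05) and by 0.96 from 1 to 48 hrs (9.05e-06), and by 0.72 (0.000237) and 0.52 (0.00736) by 1454712_at. The DMSO arrays at 24 and 48 hrs are also the controls of the RSG comparison, so these values and the folds above share arrays.

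**Figure D4:**
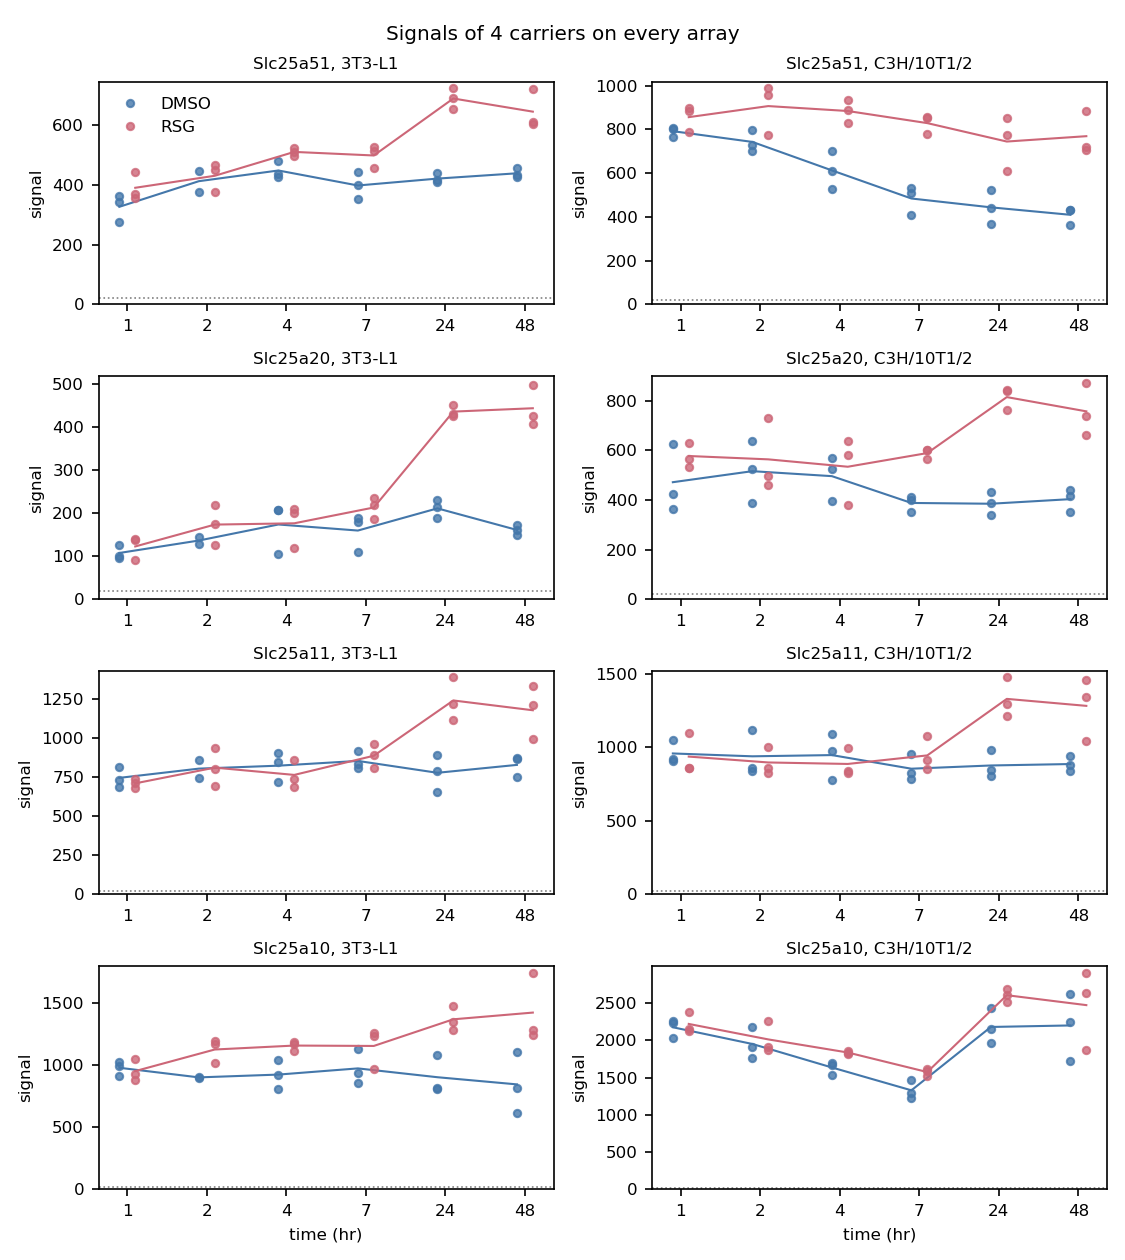
Signal (linear axis from 0) of Slc25a51, Slc25a20, Slc25a11 and Slc25a10 on every array with DMSO (blue) and RSG (red) at each time in hours, with lines through the group means and a dotted line at the presence level. The blue and red points of Slc25a20 part at 24 hrs in both cell types, and the DMSO points of Slc25a51 in C3H/10T1/2 go down from 767.4 to 807.9 at 1 hr to 363.7 to 433.5 at 48 hrs.

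Slc25a33, a pyrimidine nucleotide carrier, and Slc25a26, which imports S-adenosylmethionine, were called in 3T3-L1. Slc25a33 read 196.3, 168.8 and 180.2 with DMSO and 260.1, 243.6 and 271.9 with RSG at 24 hrs, and 210.1, 170.1 and 189.5 and 294.9, 260.3 and 358.4 at 48 hrs. RSG arrays were above DMSO arrays at both times, with folds of 1.42 (adjusted p = 0.0151) and 1.6 (0.00101). The first was lost without RSG replicate 1 (0.0514), RSG replicate 3 (0.0595), DMSO replicate 2 (0.0757) or DMSO replicate 3 (0.051). Slc25a26 by 1453886_a_at read 61.0, 48.6 and 52.1 with DMSO and 94.7, 77.8 and 82.1 with RSG at 24 hrs, and 59.0, 51.2 and 45.0 and 101.0, 95.5 and 77.1 at 48 hrs. Its groups did not overlap either, with folds of 1.58 (0.0186) and 1.76 (0.00254). The first was lost without RSG replicate 1 (0.104), DMSO replicate 2 (0.0899) or DMSO replicate 3 (0.0671). The probe set that stands for Slc25a26, 1428929_s_at, was called at no time in either cell type. The coenzyme A carrier Slc25a42 had a log2 fold change of 0.59 at 24 hrs in 3T3-L1 that did not pass (adjusted p = 0.0813), and the probe sets that stand for Slc25a17 and Slc25a36 had smallest adjusted p values of 0.194 and 0.184.

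Slc25a39, a carrier needed for mitochondrial glutathione, was higher in both cell types. By 1453111_a_at the C3H/10T1/2 arrays read 734.4, 668.4 and 601.1 with DMSO and 1144.7, 1043.0 and 972.8 with RSG at 48 hrs. The groups were apart (fold 1.58, log2 0.66, SE 0.15, adjusted p = 0.0066), and the call was kept without any 1 array. With the replicate block it was also called at 24 hrs (0.00638), as was 1439410_x_at at 24 (0.0453) and 48 hrs (0.0149) and 1456176_x_at at 48 hrs (0.0416). In 3T3-L1 the same probe set 1453111_a_at read 402.8, 630.5 and 722.9 with DMSO and 1062.7, 743.4 and 980.9 with RSG at 48 hrs, a fold of 1.62 (adjusted p = 0.032) lost without RSG replicate 1 (0.142), RSG replicate 3 (0.0959) or DMSO replicate 1 (0.265). At 24 hrs 1439410_x_at was 1.34-fold higher (adjusted p = 0.0337), lost without RSG replicate 1 (0.112), RSG replicate 3 (0.0968), DMSO replicate 1 (0.0505) or DMSO replicate 2 (0.175) and after quantile normalization (0.187).

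The iron carriers Slc25a28 and Slc25a37 (mitoferrins) were not called. Slc25a37 read 22.9, 33.6 and 30.3 with DMSO and 6.2, 19.1 and 18.2 with RSG at 24 hrs in 3T3-L1, apart, with all 3 RSG arrays under the presence level. The DMSO mean was at least 1.44-fold higher than that level, and the fit did not pass (adjusted p = 0.0789). Of the uncoupling protein-like carriers, Slc25a14 was not called. Slc25a30 was lower at 7 hrs in C3H/10T1/2 by 1420835_at, which read 187.5, 161.2 and 199.1 with DMSO and 104.1, 123.8 and 139.5 with RSG (log2 −0.58, SE 0.16, adjusted p = 0.0427). That call was lost without RSG replicate 1 (0.238), RSG replicate 2 (0.0924), DMSO replicate 1 (0.115) or DMSO replicate 3 (0.19), and the brighter 1420836_at overlapped there (log2 −0.13, adjusted p = 0.88). Among carriers with no assigned substrate, Slc25a46, an outer membrane protein of mitochondrial dynamics, was higher in 3T3-L1. By 1448970_at it read 236.2, 253.5 and 240.3 with DMSO and 317.4, 385.3 and 405.9 with RSG at 24 hrs (fold 1.51, adjusted p = 0.0198) and was 1.62-fold higher at 48 hrs (0.005). The first call was lost without RSG replicate 2 (0.0664), RSG replicate 3 (0.0883), DMSO replicate 1 (0.056) or DMSO replicate 3 (0.0644) and the second without DMSO replicate 1 (0.0858). By 1418134_at it was 1.6-fold higher at 48 hrs (0.0204), lost without RSG replicate 3 (0.125) or DMSO replicate 1 (0.176). Slc25a35, Slc25a45, Slc25a47 and Slc25a53 were not called, and the probe sets that stand for them had smallest adjusted p values of 0.0895, 0.171, 0.0788 and 0.305. Slc25a48 was under the presence level in every group mean and was not tested.

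Promoters of called carriers could be read from RefSeq (GRCm38.p6), as 250 bases before to 50 after a start site. The search covered 35 such windows for 26 of the 33 genes. No window was searched for Slc25a2, Slc25a26, Slc25a35, Slc25a37, Slc25a44, Slc25a46 and Slc25a51. That does not mean that RefSeq has no start site for them, and whether their promoters hold a match was not tested. PPARγ with its partner RXR binds direct repeats of AGGTCA spaced by 1 base. Such a repeat with up to 2 mismatches, on either strand, was found in 3.86% of 32851 windows of all genes and in 3 of the 35 (8.57%), in Slc25a20, Slc25a45 and Slc25a47. The last 2 genes were not called. AAGGTCA, the binding letters of estrogen-related receptors, was in 4.72% of the 32851 windows and in 0 of the 35. GCGCATGC, the core of NRF1 sites, was in 2.71% and 0. A match is a description of the letters, and its absence says only that they are not in this window. The windows are given for Slc25a20, called in both cell types and the only called gene with a match among those with a window. Those of Slc25a11, called in both without a match, and of Slc25a24, called lower in both, are also given. Lower case marks sequence outside the match and capitals the repeat, whose first base lies at +7 of Slc25a20. They lie at chr9:108661886-108662185 on the plus strand, chr11:70646990-70647289 on the minus strand and chr3:109122899-109123198 on the plus strand, and are written 5′ to 3′ along the gene.
Slc25a20: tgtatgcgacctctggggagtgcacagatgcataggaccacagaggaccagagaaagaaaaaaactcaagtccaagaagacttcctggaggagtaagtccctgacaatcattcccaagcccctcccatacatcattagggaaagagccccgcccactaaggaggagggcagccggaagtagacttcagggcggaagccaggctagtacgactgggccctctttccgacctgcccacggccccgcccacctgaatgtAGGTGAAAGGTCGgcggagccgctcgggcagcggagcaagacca
Slc25a11: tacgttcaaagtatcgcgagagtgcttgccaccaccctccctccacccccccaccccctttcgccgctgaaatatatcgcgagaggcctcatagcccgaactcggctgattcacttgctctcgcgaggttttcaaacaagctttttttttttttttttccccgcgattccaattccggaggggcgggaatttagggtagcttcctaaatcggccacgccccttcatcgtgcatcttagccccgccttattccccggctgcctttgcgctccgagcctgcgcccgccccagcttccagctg
Slc25a24: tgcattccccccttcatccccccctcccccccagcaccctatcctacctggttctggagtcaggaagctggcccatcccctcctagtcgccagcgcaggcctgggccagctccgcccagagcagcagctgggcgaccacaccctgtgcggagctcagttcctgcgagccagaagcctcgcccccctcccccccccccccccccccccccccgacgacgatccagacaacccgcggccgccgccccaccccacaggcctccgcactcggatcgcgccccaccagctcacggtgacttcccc

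Enzymes that work with these carriers were read from lists by function, and their counts were as follows. Of 6 tested probe sets of the carnitine enzymes Cpt1a, Cpt2 and Crat, in 3T3-L1 3 passed as higher at 24 hrs and 2 at 48 hrs. The C3H/10T1/2 counts were 1 and 2, with 0 lower in either cell type. Among all tested probe sets, the shares called higher at these times were 4.79 and 6.2% for 3T3-L1, then 3.65 and 2.79% for C3H/10T1/2. At 48 hrs the calls in each cell type were of Crat and Cpt2, so Cpt1a had none. That Cpt2 call in C3H/10T1/2 was lost without RSG replicate 1 (0.12), 2 (0.145) or 3 (0.0721) or DMSO replicate 1 (0.195) or 3 (0.184). Crat, carnitine acetyltransferase, read 382.9, 587.5 and 723.8 with DMSO and 1303.5, 1168.9 and 1222.9 with RSG at 48 hrs in 3T3-L1. C3H/10T1/2 arrays read 482.3, 596.6 and 488.3 with DMSO and 1005.6, 932.5 and 687.5 with RSG. RSG was above DMSO on every array, with log2 fold changes of 1.17 (adjusted p = 1.18e-05) and 0.73 (0.000402). Cpt2, which remakes acyl-CoA on the matrix side of Slc25a20, had log2 fold changes of 1.03 (7.39e-05) and 1.13 (1.36e-05) at 24 and 48 hrs in 3T3-L1.

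Citrate leaves mitochondria by way of a carrier not analysed here, and 10 probe sets of enzymes that make or use it (Cs, Acly and Aco1) or act later on its products in the cytosol (malic enzyme, Me1, which turns malate into pyruvate) were tested. Higher in 3T3-L1 were 6 at 24 hrs and 9 at 48 hrs, where 4.79 and 6.2% of all tested probe sets were. The counts in C3H/10T1/2 were 3 and 1, where 3.65 and 2.79% of all were. In both cell types 0 were lower. Me1 gave 1 of the calls at each time in 3T3-L1 and 1 at 24 hrs in C3H/10T1/2, which was lost without RSG replicate 1 (0.221), RSG replicate 2 (0.0814), DMSO replicate 2 (0.0914) or DMSO replicate 3 (0.223). Citrate synthase, Cs, by 1422577_at read 677.5, 807.4 and 997.0 with DMSO and 2513.3, 2353.6 and 1878.6 with RSG at 48 hrs in 3T3-L1, a log2 fold change of 1.45 (adjusted p = 1.01e-05). Its log2 fold change in C3H/10T1/2 was 0.80 at 24 hrs (0.00132) and 0.69 at 48 hrs (0.00609, lost without DMSO replicate 1, 0.0527). ATP citrate lyase, Acly, which splits citrate in the cytosol, was called in 3T3-L1 alone (log2 0.91 by 1451666_at at 48 hrs, adjusted p = 1.01e-05).

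The malate-aspartate shuttle enzymes were divided. Of 9 probe sets 2 were higher at 24 hrs and 1 higher and 2 lower at 48 hrs in 3T3-L1. In C3H/10T1/2 1 was higher and 1 lower at 24 hrs and 1 was higher at 48 hrs. Of all tested probe sets, 4.79 and 6.2% were higher and 6.97 and 8.09% lower at 24 and 48 hrs in 3T3-L1. The C3H/10T1/2 shares were 3.65 and 2.79% higher and 4.07 and 2.62% lower. Whether so few calls differ from these shares was not tested. Malate dehydrogenase 2, Mdh2, had log2 fold changes of 0.70 (0.000235) and 0.71 (0.000146) in 3T3-L1 and 0.50 (0.00255) at 48 hrs in C3H/10T1/2. The mitochondrial aspartate aminotransferase Got2 by 1417715_a_at read 831.0, 1052.1 and 1045.2 with DMSO and 730.3, 579.8 and 684.1 with RSG at 48 hrs in 3T3-L1, all lower (log2 −0.55, adjusted p = 0.00109). Its log2 fold change in C3H/10T1/2 at 24 hrs was −0.67 (0.00731), lost without RSG replicate 1 (0.0762) or DMSO replicate 3 (0.0572).

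For both lists of this paragraph, the shares of all tested probe sets at 24 and 48 hrs were as follows. In 3T3-L1 4.79 and 6.2% were higher and 6.97 and 8.09% lower. In C3H/10T1/2 3.65 and 2.79% were higher and 4.07 and 2.62% lower. On both sides of the ADP/ATP exchange, 9 probe sets of the ATP synthase F1 subunits had 5 higher at each late time in 3T3-L1. In C3H/10T1/2 3 were higher at each, and 0 were lower in either cell type. Atp5a1 by 1423111_at had log2 fold changes of 0.68 (0.000566) and 0.79 (6.46e-05) in 3T3-L1 and 0.48 (0.00697) at 48 hrs in C3H/10T1/2. Kinases that use or pass on the exchanged nucleotides (the adenylate kinases Ak3 and Ak4, the mitochondrial creatine kinases Ckmt1 and Ckmt2 and the hexokinases Hk1 and Hk2) had 11 tested probe sets in 3T3-L1, of which 3 were higher (Ak4 by 2 and Hk2) and 1 lower (Ak3) at 24 hrs and 5 higher at 48 hrs (Ak4 by 3, Hk2 and Ak3). The Ak3 calls came from different probe sets, the lower one at 24 hrs from 1423717_at and the higher one at 48 hrs from 1432436_a_at. They are thus not a reversal within the same probe set. The Ak3 call at 24 hrs was lost without any 1 of its 6 arrays (0.0617 to 0.137). That at 48 hrs was lost without RSG replicate 1 (0.223), RSG replicate 2 (0.12), DMSO replicate 1 (0.505) or DMSO replicate 3 (0.0698). Of 9 for C3H/10T1/2, 3 were higher at 24 hrs (Ak4 by 2 and Hk2) and 2 at 48 hrs (both of Ak4). The Ak4 call by 1421830_at at 48 hrs was lost without RSG replicate 1 (0.109), RSG replicate 3 (0.077) or DMSO replicate 2 (0.205). The Hk2 call at 24 hrs in C3H/10T1/2 was lost without RSG replicate 3 (0.0683), DMSO replicate 2 (0.0583) or DMSO replicate 3 (0.051). Ak4, a matrix adenylate kinase, read 70.0, 80.8 and 64.6 with DMSO and 273.1, 413.9 and 457.9 with RSG at 48 hrs in 3T3-L1 by 1450387_s_at. The C3H/10T1/2 arrays read 326.9, 169.2 and 296.6 with DMSO and 565.5, 465.0 and 584.5 with RSG. The groups were apart in both, with folds of 5.21 (log2 2.38, adjusted p = 6.61e-08) and 2.11 (log2 1.08, adjusted p = 0.0017). The first fold of Ak4 is above the largest fold of a called member, 2.75 for Slc25a20, and the second close to the 2.12 of Slc25a20 at 24 hrs. Each of the Crat, Cpt2, Cs, Acly, Mdh2, Got2, Atp5a1 and Ak4 calls given here was kept without any 1 array, but for those for which an array is named.

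With DMSO alone, carrier signals spanned the range of the array. By the median of the DMSO arrays, 1 gene of 33 lay under the presence level in 3T3-L1, 11 lay between it and 100, 17 between 100 and 1000 and 4 above 1000, and the counts in C3H/10T1/2 were 3, 11, 14 and 5. The highest signals in 3T3-L1 and C3H/10T1/2 were of the probe sets of Slc25a5 (median 4457 and 4288) and Slc25a3 (3080 and 4221). The lowest were of Slc25a48 (10.7) and Slc25a37 (29.1) in 3T3-L1 and of Slc25a48 (2.45) and Slc25a13 (6.15) in C3H/10T1/2. Different probe sets bind with different strength, so this order is of signals and not of transcript numbers.

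Within a probe set, DMSO levels could be compared between the cell types, where line, differentiation and its RSG dose cannot be told apart. The scaling mattered here, since the median of all probe sets was 0.32 on the log2 scale higher in 3T3-L1 as deposited and 0.08 after quantile normalization. Called under both scalings, 18 of 61 Slc25 probe sets (29.5%, where 34.7% of all were) were higher in 3T3-L1 and 17 (27.9%, where 21.1% of all were) in C3H/10T1/2. Slc25a13 lay between 26.4 and 74.7 (median 53.7) on the DMSO arrays of 3T3-L1 and between 3.5 and 10.2 (median 6.15), under the presence level on all 18 arrays, in C3H/10T1/2. C3H/10T1/2 was thus a bound, and the level in 3T3-L1 was at least 2.75-fold higher (its mean against the presence level). In the other direction, Slc25a20 lay between 96.3 and 231.4 (median 161) in 3T3-L1 and between 337.4 and 636.7 (median 415) in C3H/10T1/2, without overlap (log2 −1.51 and −1.57). Slc25a10 lay between 610.6 and 1125.4 (median 914) and between 1221.4 and 2627.8 (median 1935; log2 −1.04 and −0.87). Slc25a51 by 1454712_at lay between 91.6 and 145.9 (median 119) and between 282.9 and 704.0 (median 479; log2 −2.10 after quantile normalization), while by 1433816_at the difference was −0.47 and −0.42. Slc25a45 was higher in 3T3-L1, between 120.7 and 189.8 (median 155) against 58.0 to 129.0 (median 82.3), with slight overlap (log2 0.89 and 0.70).

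**Figure D5:**
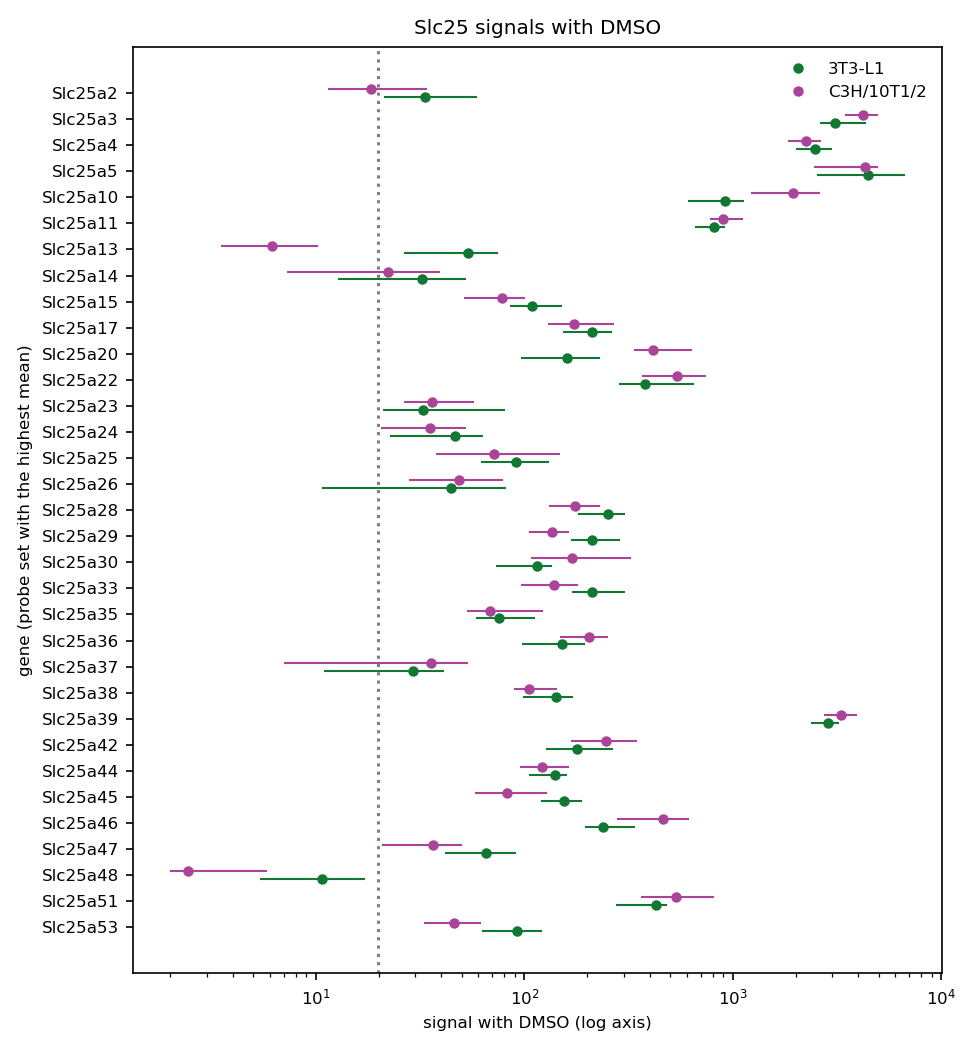
Signal with DMSO (log axis) of the probe set that stands for each of the 33 genes in 3T3-L1 (green) and C3H/10T1/2 adipocytes (purple), with the median over all DMSO arrays of the cell type as a point, the lowest to highest array as a line and the presence level dotted. Slc25a13 lies above the dotted line in 3T3-L1 and below it in C3H/10T1/2, and the lines of Slc25a10 and Slc25a20 do not overlap.

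Over time with DMSO, few carriers moved in 3T3-L1. From 1 to 24 hrs 2 probe sets were higher (where 0.288% of all were), Slc25a20 by 0.98 (adjusted p = 0.0386) and 1438922_x_at of Slc25a5 by 0.91 (0.0314), and with any 1 array of these groups left out the count was 0 or 1. From 1 to 48 hrs 1 was higher (where 0.577% of all were), Slc25a51 by 0.44 (0.049), a count of 0 or 1 with 1 array left out. C3H/10T1/2 had 4 probe sets lower at 24 than at 1 hr (7.02%, where 5.5% of all were). These were the 2 of Slc25a51, 1423109_s_at of Slc25a20, which fell by 0.70 (adjusted p = 0.000523), and Slc25a33, which fell by 0.64 (0.00732), and the count was 3 without DMSO replicate 1 at 24 hrs. At 48 hrs the 2 of Slc25a51 were lower (3.51%, where 5.12% of all were), and with the replicate block 7 were (12.3%, where 7.55% of all were). Slc25a35 was higher at 48 than at 1 hr, by 0.69 (0.005). Without DMSO replicate 2 at 48 hrs 1 probe set was lower and 0 were higher.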

How the data were processed

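RNA of 71 samples was hybridised to Affymetrix 430A arrays by the authors, after the RNA samples had been put in random order. The authors deposited linear signal intensities from MAS 5.0, which subtracts background and scales each array to the same target. The trimmed mean (2% from each end) of an array lay between 148.8 and 149.3. Arrays give no read depth, and their number limits the precision. Of 22690 probe sets 64 controls were set aside. In the supplied annotation 20380 probe sets had 1 gene, 691 had several and 1555 had none. The 132 values of 0 were set to 0.1, and nothing was normalized again.

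Group means of log2 signals were fitted by limma 3.58.1 (lmFit, then eBayes with its trend option; R 4.3.3) over all arrays of a cell type (35 of 3T3-L1 and 36 of C3H/10T1/2 adipocytes), or of both for comparisons between them. Probe sets were tested where 1 or more group means reached the presence level of 19.9, and Benjamini-Hochberg adjustment ran over all of them, with 0.05 as the threshold. A fold is 2 to the power of the difference of mean log2 signals. The fit was tested on simulated data. Tables and figures were made with Python 3.11.15 and matplotlib 3.10.9.

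Samples with the same replicate number deviated together in C3H/10T1/2 (correlation of their deviations from the group means over 0.1 in 18 of 18 pairs, 0.132 to 0.307), so the fit with the number as a block is given beside results it changes. In 3T3-L1 this held in 14 of 17 pairs (0.019 to 0.261), and the samples share only a number. Alternatives were no trend, signals under 19.9 set to 19.9, no filter and a filter at 50, quantile normalization, only the 2 groups compared, the methods' analysis of variance, 1 probe set per gene and each array left out in turn.

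The family, its substrate groups, the lists of partner enzymes and markers and the tests were chosen with earlier results of these data known. Array values were given by rule for the gene with the largest change at 24 or 48 hrs in each substrate group and cell type, and for all genes called before 24 hrs or called lower at 24 or 48 hrs. The other called genes, and uncalled ones with values, were named beyond that rule, after their values were seen.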

Additional observations from a re-analysis of the deposited data

How the results depend on the processing

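Of the 51 calls of single probe sets of RSG against DMSO, 0 changed direction under any alternative run, 27 were kept without any 1 array, and all 51 were kept with the replicate block. Counts below are of Slc25 probe sets, higher or lower with RSG unless DMSO is named. With the replicate block (for 3T3-L1 the samples share only a number) they became 3 higher at 4 hrs, 6 higher at 7 hrs and 3 lower at 48 hrs in 3T3-L1, with 1 lower in DMSO at each of 24 and 48 hrs against 1 hr. In C3H/10T1/2 they became 2 higher at 4 hrs, 6 higher and 3 lower at 7 hrs and 10 higher at 24 hrs, with 1 higher in DMSO at 24 hrs and 7 lower at 48 hrs. The difference between the cell types then passed for 1 probe set at 24 hrs. The methods' analysis of variance without adjustment called 3 higher and 1 lower at 2 hrs, 4 higher at 4 hrs, 8 higher and 2 lower at 7 hrs and 1 lower at 24 hrs in 3T3-L1, and in C3H/10T1/2 2 higher at 1 hr, 3 higher and 3 lower at 2 hrs, 3 and 2 at 4 hrs, 11 and 3 at 7 hrs and 12 higher at 48 hrs. After adjustment it called 0 at 4 and 7 hrs and 1 higher and 0 lower at 24 and at 48 hrs in 3T3-L1, and 0 at 7, 24 and 48 hrs in C3H/10T1/2; that fit has fewer arrays and no shared spread. With only the 2 groups compared, 3T3-L1 had 2 higher at 7 hrs, 0 lower at 24 hrs and 7 higher and 0 lower at 48 hrs, and C3H/10T1/2 1 higher and 0 lower at 7 hrs, 1 lower at 24 hrs and 3 higher at 48 hrs. Quantile normalization gave 2 lower at 48 hrs in 3T3-L1 and 1 lower at 24 hrs in C3H/10T1/2. In C3H/10T1/2 the fit without a trend gave 0 lower at 7 hrs, no filter gave 0 lower at 7 hrs and 1 lower at 24 hrs, and a filter at 50 gave 1 higher at 4 hrs and 1 lower at 24 hrs. The cause was not tested.

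With each array left out in turn, 3T3-L1 counts ranged from 0 to 1 higher at 4 and at 7 hrs, 6 to 15 higher and 0 to 3 lower at 24 hrs and 9 to 16 higher and 0 to 3 lower at 48 hrs, with 0 to 1 higher in DMSO at 24 and at 48 hrs. C3H/10T1/2 counts ranged from 0 to 1 higher at 4 hrs, 3 to 4 higher and 0 to 1 lower at 7 hrs, 5 to 7 higher and 1 to 2 lower at 24 hrs and 4 to 7 higher at 48 hrs, with 0 to 1 higher and 3 to 4 lower in DMSO at 24 hrs and 0 to 1 higher and 1 to 3 lower at 48 hrs. The test of a difference between 3T3-L1 and C3H/10T1/2 effects at 48 hrs, treated likewise after seeing the data, gave 0 to 1 in each direction. Signals near the presence level (Slc25a13, Slc25a23, Slc25a24 and Slc25a37) have little room to fall and vary most on the log2 scale.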

Other observations

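Some relatives of the Slc25 genes carry other symbols, and with other metabolite transporters of the inner mitochondrial membrane they made a list of 9 genes, with 14 tested probe sets in 3T3-L1, and 13 for C3H/10T1/2. It was drawn up by function, with earlier results of these data known. With RSG, 1 probe set was higher and 0 were lower at 7 hrs in 3T3-L1. At 24 hrs and again at 48 hrs 3 were higher and 3 lower. Of all tested in 3T3-L1, 1.22, 4.79 and 6.2% were higher and 0.821, 6.97 and 8.09% lower at 7, 24 and 48 hrs. For C3H/10T1/2 there was 1 higher and 0 lower at 7 hrs, then 1 higher and 2 lower at 24 hrs, then 1 of each at 48 hrs. Of all tested there, 1.65, 3.65 and 2.79% were higher and 1.2, 4.07 and 2.62% lower at these times. Lower calls made up a larger part of this list than of the Slc25 probe sets, and that difference was not tested. Sideroflexins were divided. Sfxn1, a transporter of serine into mitochondria, read 866.6, 634.0 and 804.3 with DMSO and 1556.2, 1463.9 and 1270.3 with RSG at 24 hrs in 3T3-L1 by 1417559_at. The groups were apart and the fold was 1.87 (log2 0.90, limma adjusted p = 1.01e-05), kept without any 1 array. It was the one of these genes called in 3T3-L1 at 7 hrs, where the arrays read 722.4, 602.8 and 746.9 with DMSO and 1303.0, 926.2 and 1054.5 with RSG (log2 0.66, adjusted p = 0.00335). That call was lost without RSG replicate 1 (0.053) or DMSO replicate 2 (0.0553).

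Sfxn3 went the other way. By 1417893_at its arrays in 3T3-L1 read 104.2, 169.5 and 203.0 with DMSO and 60.0, 69.9 and 89.0 with RSG at 24 hrs, and 187.0, 153.3 and 192.6 with DMSO and 79.5, 65.0 and 75.8 with RSG at 48 hrs. C3H/10T1/2 arrays at 24 hrs read 160.3, 129.2 and 165.2 with DMSO and 74.4, 80.4 and 89.4 with RSG. RSG was below DMSO on every array in all 3 comparisons, with log2 fold changes of −1.09 (adjusted p = 0.000132), −1.27 (1.09e-05) and −0.89 (0.00241), each kept without any 1 array. Sfxn4 by 1418873_at read 92.1, 70.4 and 113.1 with DMSO and 45.1, 30.3 and 45.1 with RSG at 24 hrs in 3T3-L1, also apart (log2 −1.19, adjusted p = 0.000835, kept without any 1 array). Mtch1, a relative of the carriers in the outer membrane, was lower at 48 hrs in both cell types by 1460718_s_at. Its arrays read 784.7, 917.0 and 1102.7 with DMSO and 640.2, 505.1 and 630.9 with RSG in 3T3-L1, and 972.4, 831.3 and 703.4 with DMSO and 497.5, 648.7 and 526.3 with RSG in C3H/10T1/2. The groups did not overlap (log2 −0.65 and −0.58, adjusted p = 0.0122 and 0.00522). The first call was lost without RSG replicate 2 (0.0814) or DMSO replicate 3 (0.0797) and the second without DMSO replicate 1 (0.0592).

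Mpc1, a subunit of the pyruvate carrier, was higher at 48 hrs in 3T3-L1, where it read 1000.3, 799.3 and 678.3 with DMSO and 1240.3, 1240.7 and 1277.3 with RSG (log2 0.62, adjusted p = 0.0141, and 0.0945 without DMSO replicate 3). Of the uncoupling proteins, Ucp1 was under the presence level on all arrays of both cell types. Ucp3 was called at 7 hrs in C3H/10T1/2, where it read 60.3, 50.7 and 70.3 with DMSO and 121.9, 100.8 and 133.8 with RSG, without overlap (log2 0.98, adjusted p = 0.0185). That call was lost without RSG replicate 1 (0.0748), RSG replicate 3 (0.0896) or DMSO replicate 2 (0.0899). It was also called there at 48 hrs, where it read 72.2, 74.8 and 124.9 with DMSO and 147.2, 134.1 and 183.1 with RSG (log2 0.81, adjusted p = 0.042), and that call was lost without RSG replicate 1 (0.0819), 2 (0.0547) or 3 (0.181) or DMSO replicate 1 (0.204) or 2 (0.181). In the outer membrane, the channel Vdac1 by 1415998_at read 748.7, 1027.0 and 918.2 with DMSO and 1269.9, 1451.1 and 1490.4 with RSG at 48 hrs in 3T3-L1, apart and 1.57-fold higher (log2 0.65, adjusted p = 0.000222, kept without any 1 array).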
